A study of Mus musculus with 7 samples.

Results

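The tropomyosin genes Tpm1, Tpm2, Tpm3 and Tpm4 and the caldesmon gene Cald1 were followed probe set by probe set in mouse embryonic stem cells whose Mettl3 RNA had been lowered with short hairpin RNAs. Members were all probe sets that the annotation table of the array platform assigns to exactly 1 of these 5 symbols, 105 of the 1201338 probe sets on the array: 21 for Tpm1, 16 for Tpm2, 27 for Tpm3, 13 for Tpm4 and 28 for Cald1. The 5 genes had been chosen by values of these same arrays, their differences between the Mettl3 hairpins and luciferase, so in that contrast their values are given as a description, without a test. The contrast of hairpin 1 with hairpin 2, which did not pick them, is tested.

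All cells were J-1, a mouse embryonic stem cell line, and all had been infected with lentivirus. Mettl3 hairpin 1 and Mettl3 hairpin 2 were each used in 2 samples, and a hairpin against luciferase, a firefly gene that mouse cells lack, in 3. Each of the 7 samples was hybridised to 1 exon array, on which separate probe sets report on separate stretches of a gene, and the deposited values are on the log2 scale, so that a difference of 1 is a doubling. Nothing in the labels tells whether the samples sharing a hairpin were grown or infected separately, or whether the cells were cloned. Errors and p-values below therefore measure only how far these samples lie apart, and that scatter may be technical. Mettl3, which encodes the enzyme that places m6A on RNA, was at 8.97 and 8.67 with hairpin 1, 8.71 and 8.66 with hairpin 2, and 10.38, 10.46 and 10.14 with luciferase. Array medians over all probe sets were 6.03 to 6.07.

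Tropomyosins are coiled-coil proteins that lie end to end along actin filaments and set which myosins and other proteins can bind there. Mammals make many forms from the 4 genes through alternative promoters and alternative exons, long forms that are typical of muscle and of stress fibres and short forms that occur in most cells. Caldesmon binds actin, tropomyosin, myosin and calmodulin and restrains the myosin motor; a long form is made in smooth muscle and a short form in most other cells. In fibroblasts and smooth muscle, transcription of Tpm1 and Cald1 is known to depend on serum response factor, which binds a DNA motif called the CArG box.

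RefSeq sequence (assembly GRCm38.p6) matched all 5 genes. The 250 bases before each start in the promoter set used are shown for the 3 genes with the largest differences, Tpm1, Cald1 and Tpm4. Alternative starts are among the ways these genes make different forms. The set holds 2 starts for Cald1 and 1 each for Tpm1 and Tpm4, and it may not cover every start. Each is written 5' to 3' on the strand of its gene, and capitals mark GGAATG or its reverse complement CATTCC, the core letters bound by TEAD factors.
Tpm1, chr9:67049214-67049463, minus strand: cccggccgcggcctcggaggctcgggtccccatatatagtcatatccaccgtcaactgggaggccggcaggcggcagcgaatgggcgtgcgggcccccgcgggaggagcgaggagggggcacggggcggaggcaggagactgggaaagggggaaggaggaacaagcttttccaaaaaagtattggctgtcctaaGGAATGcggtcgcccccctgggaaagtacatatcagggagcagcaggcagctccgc
Cald1 first start, chr6:34598254-34598503, plus strand: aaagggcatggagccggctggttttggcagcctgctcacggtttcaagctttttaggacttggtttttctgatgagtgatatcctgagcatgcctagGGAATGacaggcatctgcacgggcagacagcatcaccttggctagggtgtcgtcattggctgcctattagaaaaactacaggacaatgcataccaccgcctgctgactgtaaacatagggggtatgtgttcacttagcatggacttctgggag
Cald1 second start, chr6:34709194-34709443, plus strand: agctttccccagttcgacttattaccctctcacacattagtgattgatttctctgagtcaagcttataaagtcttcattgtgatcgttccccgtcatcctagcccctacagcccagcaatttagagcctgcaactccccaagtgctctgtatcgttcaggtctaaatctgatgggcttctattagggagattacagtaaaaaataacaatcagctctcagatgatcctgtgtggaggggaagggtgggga
Tpm4, chr8:72135038-72135287, plus strand: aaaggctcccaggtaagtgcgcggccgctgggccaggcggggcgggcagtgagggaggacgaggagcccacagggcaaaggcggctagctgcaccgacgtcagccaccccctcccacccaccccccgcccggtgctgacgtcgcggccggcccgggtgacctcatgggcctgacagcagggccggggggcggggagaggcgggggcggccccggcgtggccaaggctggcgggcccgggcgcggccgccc
GGAATG, searched on both strands, occurred once in the Tpm1 window, 56 bases before the start, and once before the first Cald1 start, 153 bases before it. It was in neither the Tpm4 window nor the second Cald1 window, nor in those of Tpm2 and Tpm3. Of 32851 windows of this length in the set, 12.6% held it. The CArG box, searched only as CCWWWWWWGG with W for A or T, was in none of the 7 windows of the 5 genes and in 1.47% of all windows. Sequences that depart from it by a letter, such as CCATATATAG in the Tpm1 window, were not counted. These matches are a description and not binding sites, and no match says only that the letters are not in this window. RefSeq lists 38 transcripts for Tpm1, 18 for Cald1, 13 for Tpm3, 4 for Tpm2 and 1 for Tpm4. The probe sets are known here by identifier only, so none is placed on an exon or a transcript.

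The gene value, the median of a gene's kept probe sets on an array, was higher with both Mettl3 hairpins for Tpm1, Cald1 and Tpm4, and differed least for Tpm3. A probe set was kept when its mean over the 7 arrays was above 6.02, the median of all probe sets. All 21 of Tpm1 and all 13 of Tpm4 were kept, as were 14 of 16 for Tpm2, 26 of 27 for Tpm3 and 21 of 28 for Cald1. The 2 kept probe sets nearest the filter had means of 6.06 and 6.08 and the 2 nearest below it 5.54 and 5.84, all of Cald1. In bulk RNA, more cells that express a gene and more RNA per cell cannot be told apart.

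Tpm1, which lies on chromosome 9 and encodes alpha-tropomyosin, was at 9.89 and 9.75 with hairpin 1 and at 9.38 and 9.62 with hairpin 2, against 8.73, 8.70 and 8.72 with luciferase. The 3 luciferase arrays lay close together and every knockdown array was above them. Hairpin 1 averaged 9.82 ± 0.10 (SD, n = 2), hairpin 2 averaged 9.50 ± 0.17 (SD, n = 2) and luciferase 8.72 ± 0.02 (SD, n = 3), and the mean of both hairpins was 0.94 ± 0.09 (SE) above luciferase, a 1.92-fold difference. Hairpin 1 alone was 1.10 and hairpin 2 alone 0.79 above luciferase.

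Cald1, on chromosome 6, had the largest difference of the 5 genes by gene value, while by the median of probe set differences Tpm1 did (1.16, against 0.97 for Cald1). Cald1 was at 8.25 and 8.31 with hairpin 1 and 8.11 and 8.11 with hairpin 2, against 7.24, 7.08 and 7.36 with luciferase, with no overlap. The mean of both hairpins was 0.97 ± 0.09 (SE) above luciferase, or 1.96-fold, with 1.05 for hairpin 1 and 0.89 for hairpin 2. The range of the luciferase arrays was wider for Cald1 (SD 0.14, n = 3) than for Tpm1 (SD 0.02, n = 3).

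Tpm4, on chromosome 8, encodes a mostly non-muscle tropomyosin. It was at 11.26 and 11.25 with hairpin 1 and 11.24 and 11.14 with hairpin 2, against 10.74, 10.78 and 10.67 with luciferase, again without overlap. The difference of 0.49 ± 0.08 (SE) was that of 1 probe set, 5397827, which is the median of the gene on all 7 arrays. The median of the differences of the 13 probe sets was 0.28, and the mean in place of the median as gene value gave 0.31.

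Tpm2, on chromosome 4, encodes beta-tropomyosin. It was at 8.04 and 7.68 with hairpin 1 and 7.74 and 7.85 with hairpin 2, against 7.63, 7.64 and 7.51 with luciferase. The lowest knockdown array was only just above the highest luciferase array, and the difference was 0.24 ± 0.10 (SE). Tpm3, on chromosome 3, encodes gamma-tropomyosin and was at 11.31 and 11.39 with hairpin 1 and 11.30 and 11.31 with hairpin 2, against 11.30, 11.18 and 11.31 with luciferase. These groups overlapped, and the difference was 0.06 ± 0.08 (SE). RefSeq lists 3 pseudogenes named after Tpm3 and 1 named after Tpm4, and whether their RNA adds to these probe sets was not tested.

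In the fit over all 16353 genes (limma, Benjamini-Hochberg adjusted p below 0.05), 3 of the 5 were among the genes called higher and 0 among those called lower, where 7.9% of all genes were called in either direction and 5.53% were called higher and 2.37% lower. These are 904 and 388 genes, and 696 higher and 703 lower after the median of all gene values had been subtracted on each array. The arrays of 4 of the 5 lay above luciferase without overlap, against 13.4% of all genes, and of 0 below it, against 8.4%. Because this contrast picked the genes, nothing is read from these counts. The median difference was 0.49 over the 5 genes and 0.00 over all genes.

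Probe sets of one gene differed in how far they stood from luciferase, most of all those of Cald1 and Tpm1. Of the 95 kept probe sets, 76 had a positive difference between both hairpins and luciferase and 19 a negative one. For 43 the 4 knockdown arrays lay above all 3 luciferase arrays and for 0 below them, against 12.2% and 5.94% of all 229811 kept probe sets. The spread of the differences within a gene, as the SD over its kept probe sets after subtracting the gene value on each array, was 0.62 for Cald1 and 0.53 for Tpm1. It was 0.20 for Tpm2, 0.17 for Tpm3 and 0.13 for Tpm4, against a median of 0.16 over all genes tested. These counts and spreads come from the contrast that picked the genes, so nothing is read from their distance to all genes.

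Of the 21 probe sets of Tpm1, 15 were higher by 1 or more with the Mettl3 hairpins and 4 lay within 0.25 of no difference. Probe set 4404559 had the largest difference: 10.60 and 10.53 with hairpin 1 and 10.27 and 10.42 with hairpin 2, against 8.83, 8.70 and 8.72 with luciferase, 1.71 higher on average. Probe set 4599174 was at 9.89 and 9.75 with hairpin 1 and 9.34 and 9.79 with hairpin 2, against 8.11, 7.91 and 8.03 with luciferase. In both, the lowest knockdown array was more than 1 above the highest luciferase array. Probe set 4449390 was at 10.74 and 11.12 with hairpin 1 and 10.26 and 10.33 with hairpin 2, against 9.06, 9.18 and 8.78 with luciferase, 1.60 higher. Probe set 4964376 was at 9.63 and 9.38 with hairpin 1 and 9.34 and 9.30 with hairpin 2, against 8.02, 8.09 and 7.79 with luciferase, 1.44 higher. These 2 were also more than 1 apart between the groups. Probe set 4415283 differed less, at 12.71 and 12.66 with hairpin 1 and 12.21 and 12.38 with hairpin 2, against 11.50, 11.27 and 11.40 with luciferase, 1.10 higher.

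Other Tpm1 probe sets gave nearly the same value in every group. Probe set 5116514 was at 6.77 and 6.65 with hairpin 1 and 6.77 and 6.62 with hairpin 2, against 6.60, 6.58 and 6.96 with luciferase, a difference of -0.01. Probe set 5435831 was at 8.83 and 9.01 with hairpin 1 and 8.57 and 8.37 with hairpin 2, against 8.80, 8.44 and 8.72 with luciferase, a difference of 0.04. The arrays of these 2 overlapped between the groups. Probe set 5208658 differed by 0.16 with overlap and 4852647 by 0.16 with a narrow gap between the groups. Probe set 5060487, at 0.54, lay between these 4 and the other 16, whose differences were 0.93 or more.

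Set against the Tpm1 gene value on the same array, 4404559 was higher by 0.77, 4599174 by 0.73, 4449390 by 0.66 and 4964376 by 0.50 in the Mettl3 hairpins than in luciferase. Probe sets 5116514 (-0.96), 5435831 (-0.90), 4852647 (-0.78) and 5208658 (-0.78) were lower. For each of these 8 the knockdown and luciferase arrays did not overlap. The Tpm1 gene value is that of 4404559 on luciferase replicates 2 and 3 and of 4599174 on both hairpin 1 arrays. Its difference, 0.94, was below the median of the probe set differences, 1.16. Against that median the 4 higher ones were at 0.55, 0.51, 0.44 and 0.28, so 4449390 and 4964376 fell short of 0.5. The 4 lower ones lay further below, 5116514 the furthest at -1.17. Over the 7 arrays 5116514 averaged 6.71, the lowest of Tpm1 and not far above the filter at 6.02. The other lower ones averaged 8.68 to 8.82. Whether a dim signal held 5116514 in place was not tested. Over all 5 genes, relative values lay above luciferase on all knockdown arrays for 15 of 95 probe sets and below it for 19, against 4.38% and 4.33% of all probe sets. Of the 19, 6 were of Tpm4. Its gene value is that of 5397827 alone, at 0.49 against a median of 0.28, so probe sets near that median fall below it by construction. With a size of 0.5 or more, groups did not overlap for 16 (7 above and 9 below, 8 each of Tpm1 and Cald1), against 1.43% of all probe sets (0.654% above and 0.774% below). Nothing is read from these shares, since the contrast picked the genes. The values nearest that size were 0.50 and -0.54 inside it and 0.49 and 0.46 outside it. Cald1 probe sets 4354379 (-0.56) and 5095768 (-0.54) and Tpm3 probe set 4416340 (-0.73) were past it but overlapped.

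Cald1 showed a similar range. Probe set 4671756 had the largest difference of all 95: 9.80 and 9.57 with hairpin 1 and 9.08 and 9.37 with hairpin 2, against 7.45, 7.71 and 7.42 with luciferase, 1.93 higher on average. Probe set 4554139 was at 8.25 and 8.23 with hairpin 1 and 7.79 and 7.71 with hairpin 2, against 6.30, 6.49 and 5.65 with luciferase, 1.84 higher. Knockdown and luciferase arrays were more than 1 apart in both. Probe set 4932503 was at 8.25 and 8.19 with hairpin 1 and 7.47 and 7.78 with hairpin 2, against 6.16, 6.17 and 6.54 with luciferase, 1.63 higher, and 4322721 was 1.45 and 4368002 1.43 higher. For the 5 probe sets named here the difference from luciferase was 1.65 to 2.16 with hairpin 1 and 1.18 to 1.70 with hairpin 2. In all, 10 of the 21 kept Cald1 probe sets were higher by 1 or more, and 15 had all knockdown arrays above luciferase. Probe set 4797175, in both counts, averaged 5.97 with luciferase, below the filter at 6.02, and was kept only through its knockdown arrays. So was 4354379 (5.83 with luciferase), which is in neither count.

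At the other end, probe set 4687825 of Cald1 was at 6.19 and 6.34 with hairpin 1 and 6.63 and 6.12 with hairpin 2, against 6.62, 6.78 and 6.51 with luciferase, a difference of -0.32 with overlap. Probe set 4448837 was at 9.64 and 9.61 with hairpin 1 and 9.50 and 9.53 with hairpin 2, against 9.25, 9.69 and 9.39 with luciferase. Its difference was 0.13 and its luciferase arrays spanned those of the knockdown. Probe set 4693039 was at 8.75 and 8.94 with hairpin 1 and 8.47 and 8.50 with hairpin 2, against 8.29, 8.32 and 8.70 with luciferase, 0.23 higher with overlap. Between these and the probe sets higher by 1 or more, 7 had differences of 0.41 to 0.97, so the values of Cald1 ran over the whole range without a wide gap. Relative to the Cald1 gene value, 4671756 (0.96), 4554139 (0.87) and 4932503 (0.66) were higher in the Mettl3 hairpins. Probe sets 4687825 (-1.29), 4741064 (-1.05), 4448837 (-0.85), 4693039 (-0.74) and 4797515 (-0.54) were lower. Over all arrays 4741064 averaged 6.08, 4687825 6.46 and 4797515 6.60, not far above the filter at 6.02, while 4693039 averaged 8.57 and 4448837 9.52. Whether a dim signal held the first 3 in place was not tested.

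The 7 dim probe sets of Cald1 were left out of the gene value. Of these, 6 had a positive difference, 5 lay above luciferase on all knockdown arrays and 1, 5443316, lay below on all of them, and their median difference was 0.76. Probe set 5443316 was at 5.12 and 5.44 with hairpin 1 and 5.12 and 4.87 with hairpin 2, against 5.74, 5.46 and 6.42 with luciferase. The dim probe sets of Tpm2 (2) and Tpm3 (1) overlapped between the groups. With all probe sets included, the Cald1 gene difference was 1.17.

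The 13 probe sets of Tpm4 all had positive differences, from 0.13 to 0.57, and 7 of them had all knockdown arrays above luciferase. The lowest was 4404622, at 7.35 and 7.43 with hairpin 1 and 7.48 and 7.57 with hairpin 2, against 7.37, 7.54 and 7.06 with luciferase, with overlap. Probe set 4763583 was at 13.05 and 13.03 with hairpin 1 and 13.11 and 13.06 with hairpin 2, against 12.90, 12.79 and 12.89 with luciferase. Its groups did not overlap, and its difference was 0.20. The highest difference belonged to 4846683, at 7.37 and 6.73 with hairpin 1 and 7.27 and 7.06 with hairpin 2, against 6.60, 6.38 and 6.62 with luciferase. Relative to the gene value it was at 0.08 and the lowest, 4404622, at -0.36, both with overlap. None of the 13 was 0.5 or more off the gene.

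Differences of Tpm2 probe sets ran from -0.20 to 0.55, and 13 of 14 were positive. Probe set 4727405 was at 6.82 and 6.90 with hairpin 1 and 6.27 and 6.44 with hairpin 2, against 6.24, 6.13 and 5.81 with luciferase, its groups only just apart, and this and 5281857 (0.49) were the 2 of 14 without overlap. Probe set 4972875 was at 7.42 and 7.19 with hairpin 1 and 7.07 and 7.25 with hairpin 2, against 7.46, 7.44 and 7.41 with luciferase, and was the lowest relative to the gene (-0.44). Differences of Tpm3 probe sets centred on -0.01, and 23 of 26 lay within 0.25 of no difference. The exceptions included 5054081, at 8.46 and 8.41 with hairpin 1 and 8.45 and 8.24 with hairpin 2, against 8.05, 8.10 and 8.04 with luciferase. Probe set 4416340 varied most, at 7.27 and 6.54 with hairpin 1 and 7.56 and 7.79 with hairpin 2, against 7.70, 8.72 and 7.46 with luciferase, with overlap.

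Hairpin 1 was then tested against hairpin 2. The difference itself leaves out the luciferase arrays. Its interval and p-value do not, since the spread, like the filter, was taken from all 7 arrays. None of the 5 genes passed (limma, adjusted over 16353 genes), where 0.104% of all genes were called. At an unadjusted p below 0.05, 1 of the 5 passed, Tpm1, and 8.78% of all genes did. Tpm1 was 0.31 higher with hairpin 1 than with hairpin 2 (95% interval 0.06 to 0.57, limma adjusted p = 0.445), and both hairpin 1 arrays lay above both hairpin 2 arrays. The differences were 0.17 for Cald1 (-0.09 to 0.42, limma adjusted p = 0.742), 0.06 for Tpm2 (-0.23 to 0.35, limma adjusted p = 0.928), 0.06 for Tpm4 (-0.16 to 0.28, limma adjusted p = 0.913) and 0.05 for Tpm3 (-0.18 to 0.27, limma adjusted p = 0.937). Intervals are unadjusted, and these misses do not show that the hairpins acted alike. Hairpin 1 had the higher mean for 20 of 21 kept probe sets of Tpm1 and 18 of 21 of Cald1, 9 of 14 of Tpm2, 12 of 26 of Tpm3 and 3 of 13 of Tpm4. Probe sets of a gene were read on the same arrays and are not replicates, so these counts add no weight to the gene differences. The share over all kept probe sets was not taken. Mettl3 differed by 0.14 between them (-0.17 to 0.44, limma adjusted p = 0.843).

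Relative to their gene, 0 of the 95 probe sets differed between the hairpins (limma, adjusted over 229811 probe sets, where 0 were called in all). At an unadjusted p below 0.05, 5 of the 95 passed, 3 of Cald1 and 1 each of Tpm2 and Tpm3, and 4.91% of all probe sets did. With diffSplice, limma's test of a probe set against the others of its gene, 1 of the 95 was called, 4416340 of Tpm3 (-0.76 for hairpin 1 minus hairpin 2, adjusted p = 0.0149), against 0.0975% of all probe sets. The call rests on that method, since the test on relative values did not make it.

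Genes with the most similar course over the 7 arrays were found by the root mean square difference after centring each gene on its own mean. The nearest to Tpm1 were Setd7, a lysine methyltransferase gene (0.074), the semaphorin gene Sema3e (0.081) and the annexin gene Anxa4 (0.093), and 4 genes in all were within 0.1. Nearest to Cald1 were 2610037D02Rik (0.098), the heparan sulfate sulfotransferase gene Hs6st2 (0.10) and the adenosine kinase gene Adk (0.12). Tpm1 and Cald1 were 0.13 apart by this measure, nearer to each other than either was to Tpm2, Tpm3 or Tpm4 (0.26 to 0.46). The measure takes in the differences from luciferase that picked the genes, 0.94 for Tpm1 and 0.97 for Cald1. Nothing further is therefore read from this nearness. Nearest to Tpm4 were Cd59a (0.029), Akap17b (0.038) and Wdr91 (0.039), with 162 genes within 0.1. Tpm2 and Tpm3, whose ranges over the arrays were 0.53 and 0.20, had 917 and 2899 genes within 0.1, the nearest being Cant1, Armcx4 and Arhgap12 for Tpm2 (0.016 to 0.035) and St3gal4, Atic and Olfm1 for Tpm3 (0.016 to 0.022).

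Other genes of actin filaments and contraction were read from lists, beside the 5.53% of all genes called higher and 2.37% called lower and the all-gene median of 0.00. The lists were chosen with earlier results of these data known, so their counts are a description and cannot show a rise beyond these shares. Of 29 tested partners of actin filaments 3 rose and 0 fell with the Mettl3 hairpins (median of the list 0.10): Lima1, which crosslinks filaments (0.97, limma adjusted p = 0.000315), Svil, which links actin to membranes (0.50, limma adjusted p = 0.0129) and the adhesion gene Vcl (0.47, limma adjusted p = 0.00943). Lima1 was at 10.26 and 10.39 with hairpin 1 and 10.21 and 10.33 with hairpin 2, against 9.37, 9.40 and 9.22 with luciferase, well apart. The cytoplasmic actin genes Actb (-0.08) and Actg1 (0.04) did not pass. Of 21 tested contractile genes 5 rose and 0 fell, against 5.53% and 2.37% of all genes (median of the list 0.00). The 4 largest were the actin gene Acta2 (1.07, limma adjusted p = 0.000482), Tagln (0.78, limma adjusted p = 0.000865) and Cnn1 (0.62, limma adjusted p = 0.00722), which encode smooth muscle actin-binding proteins, and the myosin light chain gene Myl9 (0.51, limma adjusted p = 0.0107).

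Of the 8 troponin genes, whose proteins act with tropomyosin in striated muscle, 1 rose and 0 fell, against 5.53% and 2.37% of all genes, a count too small to set the list apart (median -0.05). It was Tnni3 (0.72, limma adjusted p = 0.0358), at 7.56 and 7.52 with hairpin 1 and 7.37 and 7.55 with hairpin 2, against 6.27, 6.94 and 7.13 with luciferase. Luciferase replicate 1 was the lowest, and without it the difference was 0.46. Of 17 genes of serum response factor, its coactivators and its targets 3 rose and 0 fell, against 5.53% and 2.37% of all genes (median 0.08): the LIM-domain gene Fhl1 (0.88, limma adjusted p = 0.000413), and Thbs1 (0.62, limma adjusted p = 0.00137) and Ccn1 (0.32, limma adjusted p = 0.0305), which encode matrix proteins. Srf itself was at 0.08, Mrtfa at 0.13 and Mrtfb at 0.05, and these did not pass. Of 20 splicing regulators 3 rose and 0 fell, against 5.53% and 2.37% of all genes (median 0.05): Mbnl3 of the muscleblind family (0.68, limma adjusted p = 0.00144) and the epithelial splicing genes Esrp2 (0.51, limma adjusted p = 0.00765) and Esrp1 (0.35, limma adjusted p = 0.0411). Ptbp1 was at -0.03 and did not pass.

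Several of these calls depended on single arrays. The call of Ccn1 was lost without any 1 of the 7 arrays (adjusted p 0.0535 to 0.116) and that of Esrp1 without any but hairpin 2 replicate 1 (0.0556 to 0.146). That of Tnni3 was lost without hairpin 1 replicate 1 (0.0925), hairpin 1 replicate 2 (0.0728), hairpin 2 replicate 1 (0.0636), hairpin 2 replicate 2 (0.115) or luciferase replicate 2 (0.0539). That of Svil was lost without hairpin 2 replicate 2 (0.0565), and those of Cnn2 and Myl9 without luciferase replicate 1 (0.0503 and 0.0520). All are limma adjusted p-values.

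Markers of cell types were read beside these results. All 12 embryonic stem cell markers were tested and 0 passed (1 at an unadjusted p below 0.05, against 24.2% of all genes), the largest differences being those of Dppa5a (-0.27) and Zfp42 (0.14), and their summed linear level was 55992 to 58432 with hairpin 1, 56871 to 58251 with hairpin 2 and 57618 to 62516 with luciferase. Of 13 tested fibroblast markers 0 passed (3 at an unadjusted p below 0.05) and the median difference was -0.14, the largest being Pdgfra (-0.29) and Prrx1 (-0.19). Their sum, most of it Fn1, was 6603 to 6619 with hairpin 1, 6409 to 6472 with hairpin 2 and 6107 to 6197 with luciferase. Of 9 tested smooth muscle markers 2 rose and 0 fell, against 5.53% and 2.37% of all genes: Cnn1 and Synpo2 (0.52, limma adjusted p = 0.0197). Myh11 (0.02), which marks mature smooth muscle, and Des (0.01) did not pass. The sum over the smooth muscle markers was 1605 to 1649 with hairpin 1, 1639 to 1672 with hairpin 2 and 1491 to 1613 with luciferase. Of 9 endoderm markers 0 passed (3 at an unadjusted p below 0.05), the largest being Pdgfra and Gata6 (-0.24), and the sum was 2110 to 2131 with hairpin 1, 2357 to 2396 with hairpin 2 and 2304 to 2325 with luciferase. The arrays give no detection calls, so no marker can be said to be at 0, and the part of other cell types in the results was not tested.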

How the data were processed

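The authors deposited log2 expression values for 1201338 probe sets on 7 exon arrays; per the submitters' processing notes, RMA was run in R 2.11.1. No label or header names the RMA package, the probe set definition or a genome build. Because RMA makes the distributions of all arrays alike, it hides a change shared by most transcripts. Array number, not read depth, limits precision.

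Symbols came from the platform table: 311384 probe sets had 1, 6385 several and 883569 none. Older symbols were updated through RefSeq (45560 probe sets). Genes needed 3 kept probe sets, which left 229811 probe sets and 16353 genes. Each group had its own mean in a linear model (lmFit and eBayes of limma 3.58.1 under R 4.3.3), with 4 residual degrees of freedom. Relative values are a probe set minus its gene value on the same array; diffSplice is the alternative. Other alternatives were filters, summaries, normalization, a replicate block, another spread model and leaving out each array. The pipeline was tested on simulated data.

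The 5 genes and the lists were chosen with earlier results of these data known. Named are all 5 genes; per gene the probe sets highest and lowest relative to it and those 0.5 or more off it without overlap; up to 4 called genes per list, or the 2 largest; 3 nearest genes; and Mettl3. Others (Actb, Actg1, Srf, Mrtfa, Mrtfb, Ptbp1, Cnn2, Myh11, Des, Fn1 and further probe sets of the 5 genes) were named after their values were seen. Same-numbered replicates were not paired in the fit: correlations of their deviations from group means were -0.26 to 0.08 in 6 comparisons. With 2 arrays per hairpin, both comparisons of hairpin 1 with hairpin 2 give the same value (-0.18) by construction. These values cannot show whether same-numbered samples were handled together.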

Additional observations from a re-analysis of the deposited data

Results flagged for a closer look

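Among the 5 genes and the listed genes, 1 differed between the hairpins by the test of that difference. Tagln, which encodes the actin-binding protein transgelin, was 0.83 higher with hairpin 1 than with hairpin 2 (95% interval 0.58 to 1.07, limma adjusted p = 0.0438). It was at 8.31 and 8.08 with hairpin 1 and 7.43 and 7.31 with hairpin 2, and at 6.98, 7.01 and 7.03 with luciferase. The call held with each array centred, with quantile normalization and with the other spread model. It was lost otherwise: adjusted p was 0.0635 to 0.335 when any 1 array was left out, 0.0887 with a replicate block, 0.264 with the stricter filter, 0.354 with the mean of probe sets and 0.861 with no filter. The difference itself was 0.31 with the mean and 0.23 with no filter.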

How the results depend on the processing

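Genes called between both hairpins and luciferase, 1292 here, numbered 484 with no filter on dim probe sets, 2840 with the mean of kept probe sets as gene value, 540 with a replicate block and 605 to 1098 when 1 array was left out. Those called between hairpin 1 and hairpin 2, 17 here, numbered 0 with no filter, 34 with the stricter filter, 79 with the mean, 3 with the replicate block, 29 with the trended robust spread model and 0 to 4 when 1 array was left out. Crossing the replicate numbers, an alternative chosen after seeing the data like the median of probe set differences and the median of other probe sets below, gave 542 and 0 calls.

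Relative to their gene, 0 probe sets were called between both hairpins and luciferase (20239 at an unadjusted p below 0.05), 1 with the mean, 1 with the trended robust model, 1 relative to the median of the other probe sets and 1575 with diffSplice, which pools the spread within a gene. Between hairpin 1 and hairpin 2, diffSplice called 224 and the main test 0.

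The Cald1 difference was 1.17 with no filter and 0.86 with the stricter filter. That of Tpm4 was 0.25 with the stricter filter, 0.31 with the mean, 0.44 with arrays centred and 0.28 as the median of probe set differences. By that median Tpm1 was at 1.16 and Tpm3 at -0.013, and Tpm3 was at -0.024 with the mean. For hairpin 1 minus hairpin 2 the sign turned for Tpm4 (-0.025 with the stricter filter, -0.048 with the mean), for Tpm3 (-0.041 with the mean) and, without hairpin 1 replicate 1, for Tpm2 (-0.11) and Mettl3 (-0.014). When 1 array was left out this contrast ran from -0.11 to 0.24 for Tpm2 and from -0.014 to 0.29 for Mettl3. None of these was past the threshold in the main fit, and the causes were not tested. The 16 probe sets 0.5 or more off their gene were 20 with no filter, 12 with the stricter filter, 15 to 17 under the other alternatives and 15 to 18 when 1 array was left out. Of 342 values of the 22 named probe sets under the alternatives, 329 stayed within the spread and 340 kept their sign. Both exceptions were Tpm4 probe set 4846683 relative to its gene (0.081), at -0.077 without hairpin 1 replicate 1 and -0.021 without luciferase replicate 2.

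Over the alternatives other than leaving out an array, genes called higher numbered 1 to 8 for actin partners, 2 to 6 for contractile genes, 0 to 1 for troponins, 2 to 6 for serum response factor genes, 1 to 4 for splicing regulators and 1 to 2 for smooth muscle markers. Those called lower numbered 0 to 2 in each list and marker set. The replicate block cost the calls of Vcl, Svil, Cnn2, Ccn1 and Esrp1 and that of Tagln between the hairpins. With no filter 8 listed calls were lost (Svil, Tagln, Cnn2, Myl9, Tnni3, Ccn1, Mbnl3 and Esrp1), and with the stricter filter that of Esrp2. In all, the call of Ccn1 was lost in 3 of 7 such alternatives, and that of Tnni3 in 2 of the 6 that tested it. A lone array of a hairpin was assumed to vary like the other groups. The number of arrays, 2 per Mettl3 hairpin, limits the precision throughout.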
